A study of Mus musculus with 12 samples.

Results

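The comparison described here sets dendritic cells that lack Arc against wildtype dendritic cells after a pulse of lipopolysaccharide (LPS), the outer membrane component of Gram-negative bacteria. It contrasts 6 of the 12 arrays of the study, 3 of Arc/Arg3.1 -/- cells and 3 of wildtype cells, chosen by their labels and by no measured value. All cells were bone marrow-derived dendritic cells (BMDC) from mice of 8 weeks on the C57BL/6 background, labelled male. Cultures received GM-CSF (20 ng/ml), and cells were harvested on day 7. The cells of both groups were exposed to LPS at 100 ng/ml for 30 min, washed and kept in plain medium for 1 h before they were pelleted. The other 6 arrays, 3 of Arc/Arg3.1 -/- cells and 3 of wildtype cells, went through the same steps with medium in place of LPS. Of these, the 3 knockout arrays entered the test of this contrast only through the shared estimate of the spread. The 3 untreated wildtype arrays entered as their mean, 1 sample, and added nothing to that estimate. Biotin-labelled targets from total RNA were hybridised to whole-transcript Affymetrix arrays, so that each value is a log2 signal and a difference of 1 is a 2-fold change. The labels number the samples as biological replicates and do not say which came from separate animals, whether wildtype mice were littermates of the knockouts, or which part of Arc is deleted. The p-values below therefore measure the spread between these samples.

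Arc, also called Arg3.1, is an immediate early gene best known in neurons, where synaptic activity induces it and its protein acts on the trafficking of glutamate receptors at the synapse. LPS is sensed by Toll-like receptor 4 together with CD14 and MD-2. Through the adaptors MyD88 and TRIF this receptor activates NF-kappaB and interferon regulatory factors, and dendritic cells respond by making cytokines and chemokines, raising co-stimulatory molecules and turning on the migration receptor CCR7. The study's title concerns dendritic cell migration and actin dynamics, so that genes of these processes were examined beside the LPS response.

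After LPS, knockout and wildtype BMDC differed in 2 of 22180 genes at an adjusted p under 0.05 (limma, Benjamini-Hochberg over all genes). Psca was higher in the knockout, the only gene called in that direction, which is 0.00451% of the genes tested. Arc itself was lower, again the only gene called in its direction and 0.00451% of the genes tested. These counts come from a fit whose spread is shared by the 2 LPS groups and the untreated knockout. With the 6 LPS arrays alone Psca was called and Arc was not (adjusted p = 0.0547). Whether equal replicate numbers mean paired samples is not given by the labels. Treating arrays of equal number as a block, over 9 arrays, gave 4 called genes in either direction, 0.018% of those tested. Them6 and Slc15a2 there joined Psca and Arc. With the same block as a random effect over the same 9 arrays, Psca and Arc alone were called, and the adjusted p was 0.0561 for Them6 and 0.541 for Slc15a2. At an unadjusted p under 0.05 there were 877 genes, 3.95% of those tested. Of all genes tested, 21751 (98.1%) had a 95% interval of the knockout minus wildtype difference that lay within 2-fold in both directions. The number of arrays limits this precision, and the median half-width of the interval was 0.30 log2 units.

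The signal of Arc, the targeted gene, was 8.03, 7.68 and 8.02 on the LPS arrays of the knockout and 9.39, 9.21 and 9.62 on those of the wildtype. Every knockout array lay below every wildtype array. The difference was -1.50 (SE 0.14, 95% interval -1.81 to -1.18), a 2.82-fold lower signal, with an adjusted p of 0.00591 in limma and of 0.00185 with the replicate block. The call ended with the 6 LPS arrays alone (adjusted p = 0.0547), without LPS wildtype replicate 1 (0.0565) and without the arrays with Y-linked signal (0.0943). It also ended within LPS replicates 2 and 3, fitted with the untreated knockout arrays (0.165). The differences in these fits ran from -1.56 to -1.39. The mean knockout signal of 7.91 stayed above 6.98, the level taken here as background (1 log2 unit above the median of probe sets that have no gene). Where the probes of Arc lie relative to the deleted part was not analysed here, so this residual signal does not tell how much Arc RNA remained. Without LPS, Arc gave 7.81, 7.88 and 8.05 in the knockout and 9.47, 9.24 and 9.46 in the wildtype, a difference of -1.48. The difference between these differences was -0.02 (unadjusted p = 0.943, limma). In wildtype cells the mean signal of Arc was 9.40 after LPS and 9.39 without it.

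**Figure D1:**
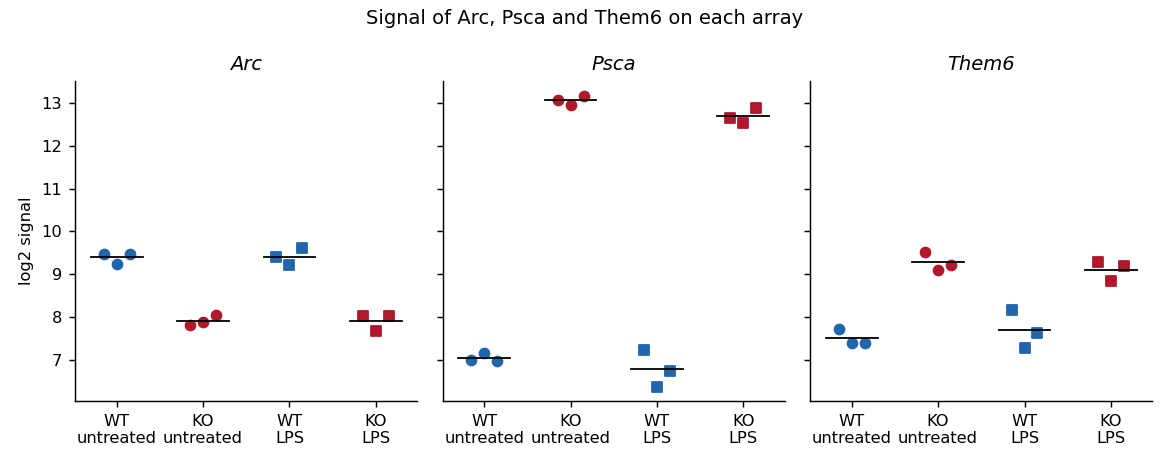
Log2 signal of Arc, Psca and Them6 on each of the 12 arrays, by group (WT, wildtype; KO, Arc/Arg3.1 -/-; circles untreated, squares LPS), with points in order of replicate number and black lines at the group means. Psca stands between 12.53 and 13.17 in the knockout with or without LPS and between 6.37 and 7.23 in the wildtype, Arc is lower and Them6 higher in the knockout in both conditions.

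Psca encodes prostate stem cell antigen, a small glycoprotein of the Ly6 family that is anchored to the cell surface by a lipid. Its signal after LPS was 12.64, 12.53 and 12.89 in the knockout and 7.23, 6.37 and 6.73 in the wildtype. The 3 knockout values lie among the bright signals of the array, whereas the wildtype mean of 6.78 is under the background level of 6.98. The measured difference was 5.91 (SE 0.19, 95% interval 5.48 to 6.33), with an adjusted p of 2.01e-07 in limma and 3.41e-07 with the replicate block. Since the wildtype signal was not above background, the fold is a bound: with each wildtype array at the higher of its signal and 6.98, Psca was at least 49.3-fold higher in the knockout. The pairs of equal replicate number differed by 5.41, 6.16 and 6.16. Without LPS the knockout arrays gave 13.07, 12.94 and 13.17 and the wildtype arrays 6.99, 7.16 and 6.97, a difference of 6.02. The genotype difference after LPS was 0.12 smaller than without LPS by the fitted interaction of -0.12 (unadjusted p = 0.736, limma). Psca was past the threshold in all 26 alternative analyses, with differences from 5.41 to 6.21 over these analyses and the single pairs.

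Them6, a gene that encodes a thioesterase superfamily protein, gave 9.29, 8.83 and 9.18 in the LPS arrays of the knockout and 8.16, 7.28 and 7.63 in those of the wildtype. All 3 knockout arrays were above all 3 wildtype arrays. The difference of 1.41 (SE 0.21, 95% interval 0.94 to 1.89) did not pass in the unblocked fit (adjusted p = 0.340, limma) and passed with the replicate block (adjusted p = 0.00439). The pairs differed by 1.14, 1.55 and 1.55. Without LPS the difference was 1.78.

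Psca and Them6 follow Arc in the reference order of protein-coding genes on chromosome 15, at places 2 and 3. The gene between Arc and Psca, Jrk, is covered only by probe sets shared with other genes and was not tested. The 40 nearest protein-coding places, 15 before and 25 after Arc, hold 30 other measured genes, among them many of the Ly6 family. Their differences ran from -0.31 for Ly6c2 to 0.50 for Ly6c1, and 1 of the 30 had groups that did not overlap, Dennd3, which encodes an activator of a Rab GTPase. Dennd3 gave 9.24, 9.74 and 9.54 in the knockout and 9.11, 9.02 and 9.08 in the wildtype, a difference of 0.44 (adjusted p = 0.999, limma). The measured genes at the other places up to the twelfth after Arc lay between -0.17 and 0.08.

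Over all genes, the 3 knockout arrays lay above the 3 wildtype arrays for 624 (2.81%) and below them for 1101 (4.96%). Among these, 8 genes differed by at least 2-fold in measured signal and had a mean above background in the higher group. Chromosome 15, which carries 839 (3.78%) of the genes tested, held 6 of these 8: Psca, Them6 and Rpl3 on the higher side, Arc, Apobec3 and D730005E14Rik on the lower. The others were Slc15a2 on chromosome 16 and the vomeronasal receptor gene Vmn1r103 on chromosome 7. An unadjusted p under 0.01 (limma) was reached by 185 genes (0.834%) of the array and by 12 (1.43%) of the 839 on chromosome 15. Of the 185, 152 were below background and 33 above it, 11 of these 33 on chromosome 15. Above background were 10483 of the 22180 genes tested, and the part of these on chromosome 15 is not given here. No test was made of these shares.

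**Figure D2:**
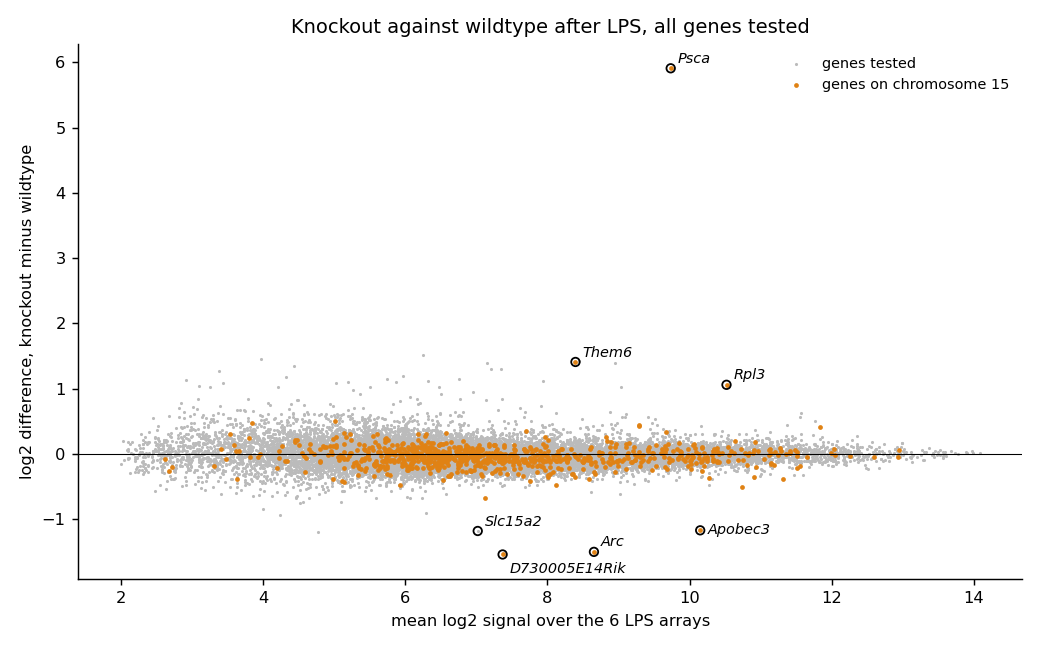
Knockout minus wildtype log2 difference after LPS (vertical axis) against the mean log2 signal over the 6 LPS arrays (horizontal axis) for the 22180 genes tested; genes of chromosome 15 are orange and the 7 labelled genes are circled. Psca lies at 5.91, far from all others. The labels mark 7 of the 8 genes with no overlap, a measured difference of at least 2-fold and a signal above background. Vmn1r103 on chromosome 7 is the one left unlabelled. Of these 8 genes 6 are on chromosome 15, which carries 3.78% of the genes tested.

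Apobec3 encodes a cytidine deaminase that restricts retroviruses, and D730005E14Rik is a long noncoding RNA whose gene model overlaps that of Apobec3 in the reference. They stand next to each other, at the places 165 and 164 after Arc among the tested genes of chromosome 15, and both were lower in the knockout. Of the 6 genes looked up (Arc, Psca, Them6, Apobec3, D730005E14Rik and Slc15a2), 3 have promoter entries in the RefSeq table, of build GRCm38.p6. The windows of 250 bases before the starts of the overlapping pair are shown because they place both genes in one short stretch, with Apobec3 read on the plus strand from a first start (chr15:79892158-79892407) and a second start (chr15:79894773-79895022) and D730005E14Rik on the minus strand (chr15:79893139-79893388). Capitals mark a match, on either strand, to the TATA box letters TATAAA or to GAGGAA, the core of the site of PU.1, a transcription factor of myeloid cells.
Apobec3, first start: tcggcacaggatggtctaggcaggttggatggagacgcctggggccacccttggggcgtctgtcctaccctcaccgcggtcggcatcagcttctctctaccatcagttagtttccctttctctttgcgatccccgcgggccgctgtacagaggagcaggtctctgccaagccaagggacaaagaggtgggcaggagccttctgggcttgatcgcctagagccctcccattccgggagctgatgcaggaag
D730005E14Rik: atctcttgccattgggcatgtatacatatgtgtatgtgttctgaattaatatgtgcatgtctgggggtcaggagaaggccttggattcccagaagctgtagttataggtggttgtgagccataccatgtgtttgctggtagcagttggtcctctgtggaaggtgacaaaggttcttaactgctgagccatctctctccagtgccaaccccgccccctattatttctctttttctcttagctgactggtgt
Apobec3, second start: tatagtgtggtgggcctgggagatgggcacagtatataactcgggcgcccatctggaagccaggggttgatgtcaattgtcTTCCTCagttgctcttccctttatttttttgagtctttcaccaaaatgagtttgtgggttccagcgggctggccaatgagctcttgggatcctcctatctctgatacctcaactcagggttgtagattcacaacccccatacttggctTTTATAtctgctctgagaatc

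Only the window of the second Apobec3 start held a match, to TATAAA and to GAGGAA, both on the opposite strand. Neither TGACGTCA (cAMP response element) nor GGGANTTTC (kappaB site) was present in these windows. Among 32851 promoter windows of this length, 12.4% hold TATAAA, 23.3% GAGGAA, 1.55% TGACGTCA and 0.941% GGGANTTTC. None of these letters overlaps another match.

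The signal of Apobec3 after LPS was 10.18, 9.18 and 9.33 in the knockout and 10.71, 10.78 and 10.71 in the wildtype. The wildtype arrays lay close together, whereas the knockout array of replicate 1 stood above its other replicates. The difference was -1.17 (SE 0.28, adjusted p = 0.999 in limma, 0.300 with the replicate block). D730005E14Rik gave 7.38, 6.36 and 6.05 in the knockout and 8.16, 8.08 and 8.17 in the wildtype. Here too the wildtype arrays lay close together and replicate 1 was the highest of the knockout. The difference was -1.54 (SE 0.38, adjusted p = 0.999, 0.300 with the block), against a knockout mean that was not above background. Without LPS the differences were -0.93 for Apobec3 and -1.30 for D730005E14Rik, and replicate 1 was again the highest knockout array for both. These genes overlap, and which probes read which transcript was not analysed here.

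Near this pair lie Pdgfb, which encodes a growth factor subunit, and Rpl3, which encodes a protein of the large ribosomal subunit. Rpl3 gave 10.86, 11.18 and 11.11 in the knockout after LPS and 10.40, 9.80 and 9.78 in the wildtype, with no overlap. The difference of 1.06 (SE 0.20, adjusted p = 0.579 in limma) was that of the brightest of its 3 probe sets. Its other probe sets gave 0.13 and -0.10, so that the probe sets of Rpl3 do not move together. Pdgfb gave 8.42, 8.47 and 8.31 in the knockout and 8.79, 8.77 and 8.78 in the wildtype, a difference of -0.38 after LPS and of 0.10 without it. Ift27, which encodes a subunit of the intraflagellar transport machinery, gave 6.69, 7.09 and 6.58 in the knockout and 7.63, 7.51 and 7.23 in the wildtype, a difference of -0.67 (adjusted p = 0.979). Ncf4, which encodes a regulatory subunit of the phagocyte NADPH oxidase, gave 9.33, 9.75 and 9.43 in the knockout and 9.11, 8.95 and 9.16 in the wildtype, a difference of 0.43. C1qtnf6 (-0.33, below background) and Cyb5r3 (-0.50) complete the 12 genes of chromosome 15 at an unadjusted p under 0.01. Apart from Arc and Psca, these genes did not pass the unblocked test after adjustment.

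**Figure D3:**
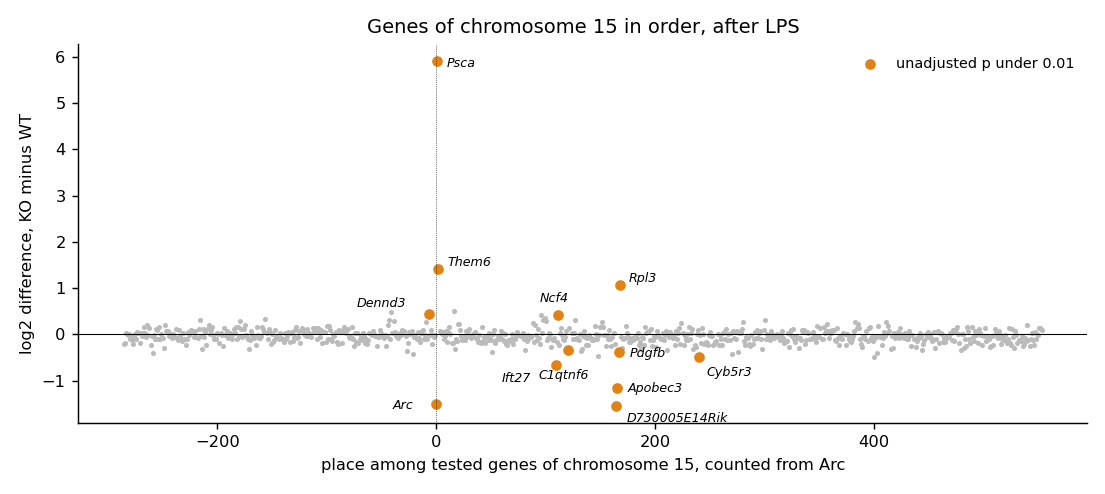
Knockout minus wildtype log2 difference after LPS (vertical axis) for the tested genes of chromosome 15 in reference order, counted in places from Arc at 0 (horizontal axis); orange points have an unadjusted p under 0.01. Psca and Them6 adjoin Arc, and D730005E14Rik, Apobec3, Pdgfb and Rpl3 stand together at the places 164 to 168.

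Slc15a2 encodes a proton-coupled transporter that takes di- and tripeptides, bacterial muropeptides included, into the cell. It lies on chromosome 16, and the window before its start (chr16:36784963-36785212, minus strand, GRCm38.p6) is shown as that of the gene off chromosome 15 that passed with the block. None of the 4 motifs was present in it.
Slc15a2: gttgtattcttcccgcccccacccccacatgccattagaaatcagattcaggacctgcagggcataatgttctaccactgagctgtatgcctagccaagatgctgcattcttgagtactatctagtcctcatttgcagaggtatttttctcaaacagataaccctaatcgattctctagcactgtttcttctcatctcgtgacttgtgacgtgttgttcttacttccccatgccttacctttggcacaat

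Slc15a2 gave 6.14, 7.13 and 6.02 in the knockout after LPS and 7.19, 8.04 and 7.58 in the wildtype, so that the highest knockout array was just under the lowest wildtype array. Replicate 2 was the highest of both genotypes. The difference was -1.18 (SE 0.32), not past the threshold without the block (adjusted p = 0.999, limma) and past it with the block over 9 arrays (adjusted p = 0.0427). Its knockout mean of 6.43 was not above background. With the block over the 6 LPS arrays alone the adjusted p was 0.133. The pairs differed by -1.06, -0.92 and -1.56. Without LPS the difference was -0.30, and the interaction of -0.88 had an unadjusted p of 0.139.

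No gene passed a test of whether the genotype difference after LPS departed from that without LPS: 0 of 22180 genes in limma, with 982 at an unadjusted p under 0.05. Zfp972, a zinc finger gene on chromosome 2, gave 8.48, 8.04 and 8.29 in the knockout after LPS (mean 8.27, SD 0.22) and a mean of 7.54 (SD 0.04, n = 3) in the wildtype, with no overlap and a difference of 0.73. Without LPS its difference was -0.49, and the interaction of 1.22 had an unadjusted p of 0.000269. Jag1, which encodes a Notch ligand, gave 9.44, 9.17 and 9.65 in the knockout and 8.99, 8.68 and 8.74 in the wildtype, a difference of 0.62. Vmn1r103 gave 8.61, 7.27 and 8.10 in the knockout after LPS and 7.10, 6.55 and 6.43 in the wildtype, a difference of 1.30, and without LPS the difference was -2.11 (7.30, 6.76 and 7.16 against 9.36, 9.09 and 9.09). Its interaction of 3.41 had an unadjusted p of 4.9e-05 and an adjusted p of 0.217 in limma. The differences of Zfp972, Jag1 and Vmn1r103 after LPS did not pass after adjustment.

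The remaining genes named by their small unadjusted p had smaller differences, and none passed after adjustment. On the higher side they were Fndc11 (0.33), Rps6kc1 (0.25), Nr2f1 (0.37), Smco4 (0.30) and the interferon regulatory factor gene Irf7 (0.27). On the lower side were Ccs (-0.43), which encodes the copper chaperone of superoxide dismutase, Alkbh4 (-0.40), the sialyltransferase gene St8sia5 (-0.35), Thap11 (-0.42), the zinc transporter gene Slc39a5 (-0.46), Zfp637 (-0.49) and the growth factor gene Fgf18 (-0.37).

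Of the genes that LPS changed most, none was called between the genotypes after LPS. Ptgs2, which encodes the prostaglandin synthase COX-2, rose by 5.69 in the knockout and by 5.44 in the wildtype on the log2 scale. Its LPS arrays read 12.37, 12.59 and 12.49 in the knockout and 12.24, 12.06 and 12.36 in the wildtype. The groups did not overlap, but the difference of 0.27 had a 95% interval from -0.38 to 0.91 (adjusted p = 0.999, limma). Tnf, which encodes tumor necrosis factor, gave 12.56, 13.33 and 13.16 against 12.88, 13.28 and 13.09, a difference of -0.07 (95% interval -0.66 to 0.53). Cxcl10, which encodes a chemokine for T cells, gave 10.75, 11.80 and 11.65 against 10.89, 11.59 and 11.47. Replicate 1 was the lowest LPS array of both genotypes for Tnf and Cxcl10. Il23a, which encodes a subunit of interleukin-23, gave 10.56, 10.75 and 10.77 against 10.62, 10.29 and 10.29, a difference of 0.29 (95% interval 0.03 to 0.56, unadjusted p = 0.0306, adjusted p = 0.999 in limma). Of the 12 genes that rose most, chosen after the values were seen by their mean response in both genotypes, the differences ran from -0.09 for Acod1 to 0.29 for Il23a.

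Among the 100 genes that rose most with LPS, the median genotype difference after LPS was 0.07, from -0.42 for Egr1 to 0.57, and 0 were called in limma, with 3 at an unadjusted p under 0.05. All 3 knockout arrays were higher for 5 of the 100 and lower for 1, beside 2.81% and 4.96% of all genes. The interval lay within 2-fold for 90 of the 100. Their median LPS response was 2.05 in the knockout and 2.01 in the wildtype. The medians of the pairs were -0.10, 0.27 and 0.08, so that the pairs did not share a direction. Among the 100 genes that fell most the median genotype difference was -0.06, from -0.48 to 1.52 for the vomeronasal receptor gene Vmn1r129, 0 were called in limma with 5 at an unadjusted p under 0.05, and 72 had an interval within 2-fold. Their median response was -0.98 in the knockout and -0.99 in the wildtype. The median of all genes tested was -0.024.

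**Figure D4:**
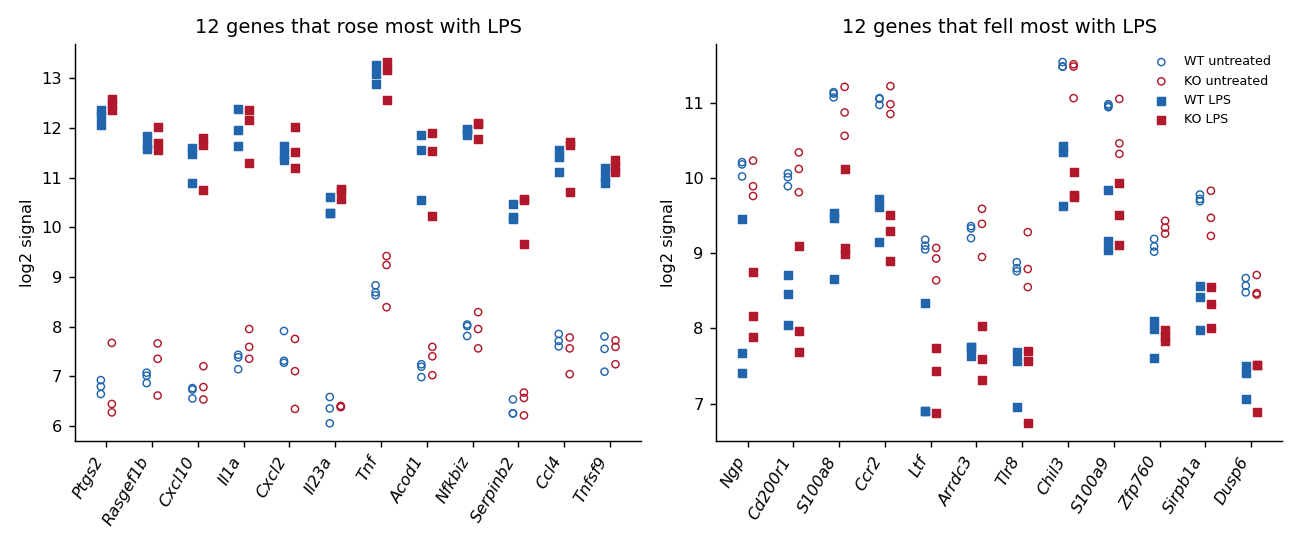
Log2 signal on each array (vertical axis) of the 12 genes that rose most and the 12 that fell most with LPS; open circles are untreated and filled squares LPS arrays, blue wildtype (WT) and red knockout (KO). For each gene the squares are separated from the circles, and the red and blue squares lie side by side, as for Tnf between 12.56 and 13.33.

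In all, 32 lists with 615 measured members were examined. They cover the LPS pathway, dendritic cell function, metabolism, cell cycle and survival, the neighbours of Arc, its protein partners and cell type markers. Psca, listed only as a neighbour of Arc, was the 1 member called in limma. An unadjusted p under 0.05 was reached by 14 members (2.28%), 4 of them neighbours of Arc, beside 3.95% of all genes. Knockout arrays were all higher for 16 members (2.6%), 3 of them neighbours of Arc, and all lower for 19 (3.09%). The shares over all genes were 2.81% and 4.96%. The interval lay within 2-fold for 590 members (95.9%). List medians ran from -0.15 for cell cycle genes to 0.12 for genes of dendritic cell maturation.

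Receptors and adaptors of LPS sensing had no member called, 0 of 18, none at an unadjusted p under 0.05 in limma, and a median of -0.03. Tlr4, the receptor, gave 8.18, 8.32 and 8.17 in the knockout and 8.13, 8.45 and 8.29 in the wildtype. Cd14, which delivers LPS to the receptor, differed by -0.01 (95% interval -0.46 to 0.43), and Ly96, which encodes MD-2, by 0.03 (-0.30 to 0.37). The groups of all these genes overlapped. Of the 16 NF-kappaB subunits and feedback genes, 0 were called and 0 had an unadjusted p under 0.05, with a median of 0.03. Nfkbia, which encodes the inhibitor IkappaB-alpha, gave 12.95, 12.98 and 13.08 against 13.01, 12.98 and 13.04.

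Of 35 early inflammatory cytokines and chemokines none was called and 1, Il23a, had an unadjusted p under 0.05. Their median was 0.08. Il6 gave 11.87, 11.10 and 11.84 in the knockout and 11.39, 10.82 and 11.24 in the wildtype, a difference of 0.45 (95% interval -0.03 to 0.94). It was higher in the knockout in every pair, but the groups overlapped. Il1b gave 13.07, 13.10 and 13.05 against 12.82, 12.88 and 13.02, a difference of 0.17 whose groups did not overlap and whose interval ran from -0.45 to 0.78. Il12b, which encodes a subunit shared by interleukins 12 and 23, differed by 0.21 (-0.30 to 0.72).

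Of 29 type I interferon and response genes, 0 were called and 3 had an unadjusted p under 0.05 (Ifit1, Ifit2 and Irf7), all higher in the knockout, beside 3.95% of all genes in either direction. The median was 0.10. All knockout arrays were higher for 4 members and lower for none, beside 2.81% and 4.96% of all genes, and nothing particular to these genes was tested. Ifit2, an interferon-induced gene, gave 6.43, 6.81 and 6.77 in the knockout and 6.17, 6.43 and 6.09 in the wildtype, a difference of 0.44 at a level below background (adjusted p = 0.999, limma). Ifnb1, which encodes interferon beta, gave 7.23, 7.69 and 7.65 against 7.60, 7.34 and 7.46 and overlapped.

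Of 28 immediate early genes, the class to which Arc belongs in neurons, 0 were called in limma and 1 had an unadjusted p under 0.05. The median was -0.13. Maff, which encodes a small Maf transcription factor and also lies on chromosome 15, gave 8.11, 7.73 and 7.81 in the knockout and 8.55, 8.06 and 8.47 in the wildtype, a difference of -0.47 (unadjusted p = 0.0143, adjusted p = 0.999). It was lower in every pair. Egr1 differed by -0.42 (95% interval -0.98 to 0.13), Jun by -0.33 (-0.67 to 0.01) and Fos by -0.30 (-0.69 to 0.09). The pair medians of the list were -0.21, 0.10 and -0.27.

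Co-stimulation and maturation genes, 24 in number, had a median of 0.12 with 0 called and 0 at an unadjusted p under 0.05 in limma. Cd40, the receptor for T cell help, gave 11.82, 11.80 and 12.04 in the knockout and 11.48, 11.45 and 11.84 in the wildtype, a difference of 0.29 (95% interval -0.01 to 0.60). Cd86, which encodes a ligand of CD28 on T cells, differed by 0.23 (-0.07 to 0.52). Both were higher in the knockout in each pair, with overlapping groups. Ccr7, the receptor that guides dendritic cells to lymph nodes, gave 13.22, 12.78 and 13.09 against 13.11, 12.90 and 13.01, a difference of 0.03 (-0.26 to 0.32).

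Of 60 actin genes, none was called and none had an unadjusted p under 0.05 in limma. The median was -0.01, with members from -0.20 for Gsn, which encodes the filament-severing protein gelsolin, to 0.13 for Swap70, and 59 of the 60 intervals lay within 2-fold. Cfl1, which encodes the filament-severing protein cofilin, gave 10.81, 11.14 and 10.95 in the knockout and 11.01, 11.08 and 10.88 in the wildtype. Arpc2, a subunit of the complex that branches filaments, differed by 0.00 (-0.20 to 0.20). Fscn1, which encodes the bundling protein fascin, gave 11.87, 11.24 and 11.74 against 11.75, 11.20 and 11.61. Replicate 2 was the lowest array of both genotypes for Fscn1. Endocytosis genes and partners of the Arc protein, 30 in number, had a median of -0.04 with 0 called and 0 at an unadjusted p under 0.05.

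**Figure D5:**
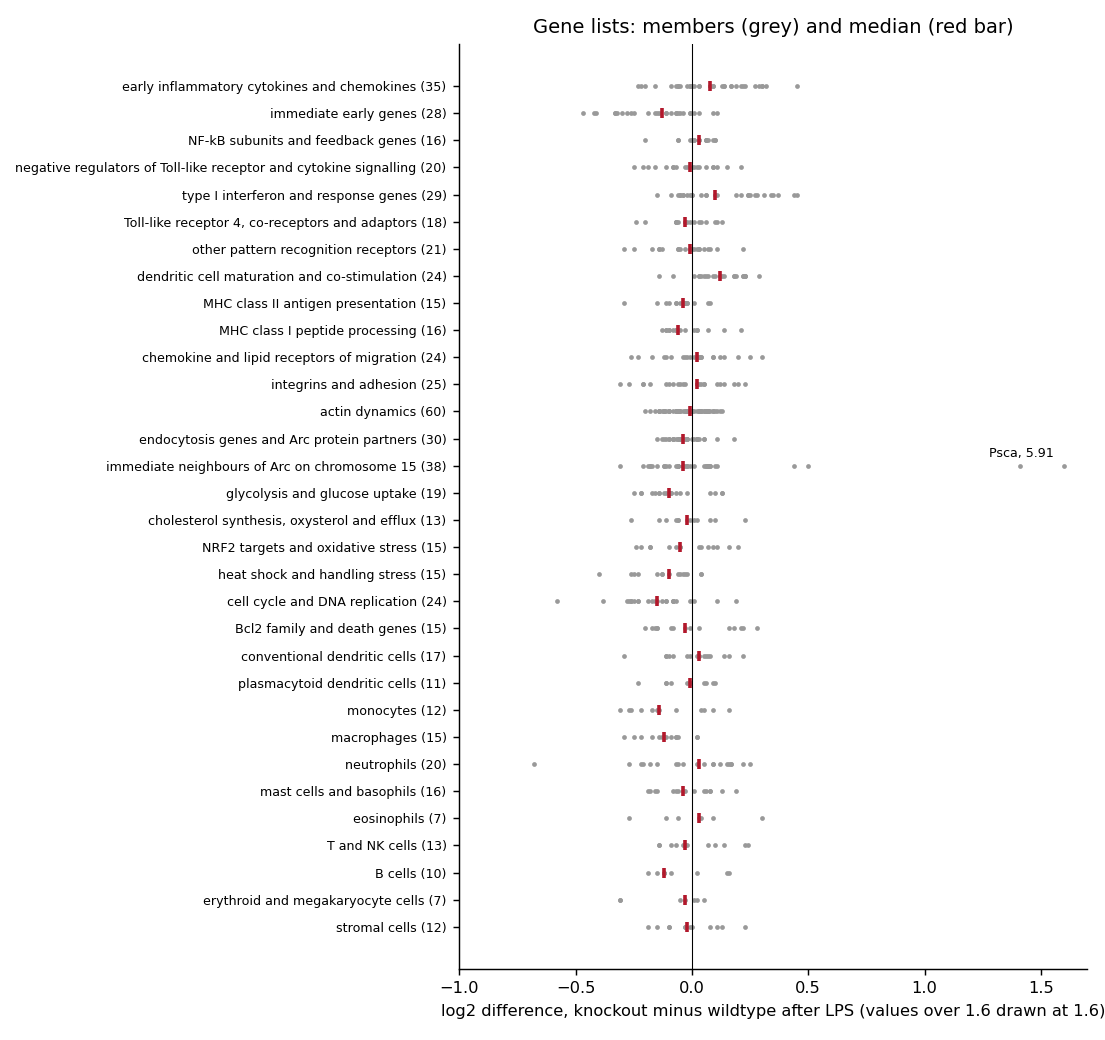
Knockout minus wildtype log2 difference after LPS of each measured member (grey points) and the median (red bar) of the 32 gene lists, with the number of measured members in parentheses; values over 1.6 are drawn at 1.6. Medians lie between -0.15 and 0.12, and Psca, at 5.91, and Them6 stand apart among the neighbours of Arc.

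The labelled cell type was checked with marker genes. Itgax, which encodes CD11c, read 10.25 to 11.49 on the LPS arrays, Zbtb46, a transcription factor of conventional dendritic cells, 9.35 to 9.55, and the MHC class II gene H2-Ab1 13.39 to 13.55. Cd3e of T cells stayed between 5.85 and 6.05 and Cd79a of B cells between 5.93 and 6.42, below the background level. Of 13 T and NK cell markers 3 were above background, and of 10 B cell markers 1. The counts were 6 of 11 for plasmacytoid dendritic cells, 4 of 16 for mast cells and basophils and 1 of 7 for eosinophils. They were 4 of 7 for erythroid and megakaryocyte cells and 2 of 12 for stromal cells. Of 17 conventional dendritic cell markers 14 were above background, and their summed linear signal was 35427 to 37392 in the knockout and 35706 to 36731 in the wildtype. Of 20 neutrophil markers 13 were above background, with sums of 5570 to 6509 and 4422 to 8040. Of 15 macrophage markers all were above background, with sums of 17589 to 26472 and 22705 to 25677. Of 12 monocyte markers 9 were above background, with sums of 6065 to 6924 and 6546 to 7680. The ranges of the genotypes overlapped for these lists, and the part of cell mixture in the results was not tested. In bulk samples, fewer cells of a type and less RNA per cell cannot be told apart.

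Arrays of the same genotype also differed from each other, and the cause was not tested. The signal of Y-linked genes was 8.14 to 9.89 and that of Xist 5.63 to 5.76 on knockout replicate 2 (with and without LPS) and on LPS wildtype replicate 1, whereas the other arrays read 3.33 to 4.86 and 11.22 to 11.92, although all samples are labelled male. The median signal of small RNA genes lay between 9.73 and 9.87 for the LPS-treated replicates 2 and 3 of each genotype, and between 10.44 and 11.04 on the remaining arrays. Each LPS group holds 1 array with Y-linked signal and 2 with low small RNA signal. Without the arrays with Y-linked signal the difference of Psca was 6.21 (adjusted p = 7.08e-06), that of Arc -1.39 (adjusted p = 0.0943), that of Them6 1.78 (adjusted p = 0.0332) and that of Slc15a2 -1.73 (adjusted p = 0.0332). Within LPS replicates 2 and 3 Psca differed by 6.16 (adjusted p = 3.09e-06), Arc by -1.56 (adjusted p = 0.165) and Them6 by 1.55 (adjusted p = 0.223). The spread of that fit came also from the 3 untreated knockout arrays. Without LPS wildtype replicate 1, Arc differed by -1.50 at an adjusted p of 0.0565. Pairs of untreated wildtype arrays had differences with an SD of 0.105 to 0.108 across genes. The SD was 0.193 to 0.271 for pairs of untreated knockout arrays and 0.234 to 0.438 for those of the LPS replicates. The 3 untreated wildtype arrays were therefore counted as 1 sample.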

How the data were processed

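The deposited table holds log2 signals of 12 arrays for 34390 probe sets, already normalized by the authors. The submitters' processing notes name limma and no version, and how they were normalized is not stated there. The platform annotation gave 1 gene for 23521 probe sets, several for 1814 and none for 9055. Each gene was represented by its brightest probe set (mean of 12 arrays), leaving 22180 genes, of which 21994 (99.2%) are in the reference gene table.

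The 12 arrays form 4 groups of 3. limma 3.58.1 (R 4.3.3) fitted 1 mean per group over 10 samples (6 residual degrees of freedom), the 3 untreated wildtype arrays entering as their mean because they were far more alike than any other replicates. P-values are two-sided and adjusted by Benjamini-Hochberg, with a threshold of 0.05. An exact permutation of 3 against 3 cannot give a p below 0.10, so none is reported. The labels do not say whether equal replicate numbers mark paired samples. Residuals of LPS samples of equal number correlated at 0.338, 0.358 and 0.228 over genes and those of unequal numbers at -0.399 to 0.0404. The residuals were centred within each group of 3, so positive values for equal numbers lower those for unequal numbers. In pairs 1 and 2 only 1 of the 2 arrays had Y-linked signal. Low small RNA signal was shared by replicates 2 and 3 of both genotypes. What equal numbers share was not tested. The replicate block was fitted over 9 arrays, without untreated wildtype (4 residual degrees of freedom).

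Named genes were Arc, genes past the threshold with or without the block, genes of smallest unadjusted p up to 12 in each direction whose groups did not overlap and whose higher mean exceeded background (5.98, the median of unannotated probe sets, plus 1), and the genes of smallest p of each list. Predicted, small RNA, immune receptor segment and odorant, taste and vomeronasal receptor genes were left out. D730005E14Rik, Vmn1r103, the lesser members of chromosome 15 and further list members were named after their values were seen. The genes and lists were chosen with earlier results of these data known. Alternatives changed the samples, terms, normalization, filter, probe set rule and variance model. The fit was tested on simulated data. Results of 1 further gene list are not reported here.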

Additional observations from a re-analysis of the deposited data

How the results depend on the processing

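Over 26 alternative analyses Psca stayed past the threshold (5.41 to 6.21 with the single pairs, adjusted p 2.43e-09 to 1.43e-05). Arc passed in 22 of 26 (adjusted p 0.000697 to 0.165) and was lost with only the 6 LPS arrays (-1.50), without the arrays with Y-linked signal (-1.39), within replicates 2 and 3 (-1.56) and without LPS wildtype replicate 1 (-1.50, adjusted p = 0.0565). Them6 passed in 6 of 26 (adjusted p 0.00439 to 0.910). It passed with the replicate block over 6 or 9 arrays and with this block and a Y-linked term together (1.41 each). It also passed with a small RNA term (1.41), without the arrays with Y-linked signal (1.78) and with array weights (1.59, a fit that stopped before convergence). With the Y-linked term alone it did not pass (adjusted p = 0.43, limma). Within replicate 1 the differences were 5.41 for Psca, -1.36 for Arc and 1.14 for Them6, with no test.

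Beside 1 gene higher and 1 lower, the replicate block over 6 arrays called 2 higher and 1 lower, and over 9 arrays 2 and 2. The block over 9 arrays together with a Y-linked term called 2 and 1. Leaving out the arrays with Y-linked signal gave 4 higher and 1 lower, a small RNA term 3 and 1, array weights 11 and 2. The 6 LPS arrays alone, and LPS replicates 2 and 3 fitted with the 3 untreated knockout arrays, gave 1 higher and 0 lower in limma. These fits had 713 and 895 genes at an unadjusted p under 0.05. Leaving out 1 replicate gave 1 higher each time and 0 to 1 lower, 0 without LPS wildtype replicate 1 (794 at an unadjusted p under 0.05). The difference of Arc over these fits lay between -1.59 and -1.38. The replicate block as a random effect over the 9 arrays gave 1 and 1, without Them6 and Slc15a2, and the other analyses gave 1 and 1. All probe sets gave 0 calls among those with no gene (674 at an unadjusted p under 0.05) or several genes (180).

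Of the 24 genes named by fold or p, none changed sign in these analyses. All were genes whose groups did not overlap, so single pairs and fits without 1 replicate could not reverse their sign. Of 121 genes followed through the analyses and single pairs, 35 changed sign at least once, none of them called. Within replicates 2 and 3 the differences turned to 0.01 for Clec10a, 0.08 for Spib, 2.57 for Eif2s3y, 0.09 for Il1a, 0.06 for Tnf, 0.03 for Acod1, 0.24 for Serpinb2, -0.25 for Ngp, 0.15 for Cd200r1, -0.07 for S100a8, 0.06 for Arrdc3, 0.01 for Tlr8 and -0.13 for S100a9. Without the arrays with Y-linked signal they turned to -0.13 for Rasgef1b, -0.33 for Cxcl10, -0.20 for Cxcl2, -0.04 for Nfkbiz, -0.29 for Ccl4 and -0.11 for Ngp. Slc15a2 passed in 2 analyses, Vmn1r103 in 2, and Rpl3 and Zfp972 with array weights. Array weights gave -0.08 for Klrb1c, 0.54 for Xist, 0.01 for Il1a, 0.17 for Serpinb2, 0.21 for Ltf and 0.10 for Tlr8 and for Sirpb1a. Leaving out 1 replicate gave -0.48 to 0.41 for Acod1, -0.26 to 0.10 for Arrdc3, -0.17 to 0.32 for Ccl4, -0.58 to 0.13 for Cd200r1, -0.28 to 0.01 for Ctsb, -0.13 to 0.41 for Cxcl10, -0.13 to 0.29 for Cxcl2, -0.15 to 0.18 for Dusp6, -2.34 to 1.32 for Eif2s3y, -0.26 to 0.27 for Il1a, -0.28 to 0.44 for Ltf, -0.49 to 0.04 for Mertk, -0.30 to 0.73 for Ngp, -0.70 to 0.21 for Ppbp, -0.07 to 0.17 for Rasgef1b, -0.19 to 0.37 for S100a8, -0.04 to 0.42 for S100a9, -0.17 to 0.28 for Serpinb2, -0.57 to 0.08 for Siglecf, -0.20 to 0.11 for Sirpb1a, -0.29 to 0.23 for Tlr8, -0.22 to 0.16 for Tnf, -2.34 to 1.69 for Xist, -0.71 to 0.05 for Ly6c2 and -0.13 to 0.11 for Zfp760. The cause of these changes was not tested. List medians lay between -0.54 and 0.33 over the analyses. With the background level at 5.98 in place of 6.98, the naming rule gave 24 genes, 12 of them shared, 8 on chromosome 15.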
